A study of Arabidopsis thaliana and Brassica rapa with 28 samples.

Results

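Peels of the hypocotyl epidermis were taken from Brassica rapa, FPsc wild type, and their response to shade is described here from 6 libraries, 3 in shade and 3 in white light (W). They were chosen by their label, hypocotyl epidermal peels, out of 28 libraries in the series, which also holds 6 libraries of whole Brassica hypocotyls and libraries of Arabidopsis seedlings. The Brassica plants were 4 d old, were raised on agar in continuous W, and were either moved to simulated shade, light poor in red relative to far-red, or kept in W, for 9 h. The groups were peels in shade, peels in W, whole hypocotyls in shade and whole hypocotyls in W, with 3 libraries each, all labelled as wild type. The labels do not say how many plants went into a library or whether libraries came from separate cultures, so the p-values cover no more than the spread between these 3, which may be technical.

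Plants read shade from neighbours through phytochromes, photoreceptors that far-red light switches off. Phytochromes in the active form hold back a family of bHLH transcription factors (PIFs). When these are released they raise auxin synthesis, and auxin-induced genes and cell wall enzymes then act in the elongation of the hypocotyl. The epidermis is known as a layer that limits the growth of the stem, and in Arabidopsis it responds to auxin made in the cotyledons. This is the background to asking what the outer layer alone does under shade.

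The files do not pair the Brassica identifiers with gene names or with Arabidopsis relatives, so genes are described here by identifier, position, level and neighbours, and the peels could not be checked against markers of the epidermis or of the tissues beneath it. Identifiers that start with Brara are annotated genes, and those that start with XLOC are loci of the authors' transcript assembly. The peel table lists 44986 loci, 40481 with a Brara identifier and 4505 without. Of the 4505, 583 have a Brara gene named beside them and 3922 have none. Levels are given in FPKM, read counts scaled for locus length and library size, as 1 value per group that the authors pooled over its 3 libraries. No value per library is given, so the spread within a group and the sequencing depth are unknown, and no overlap between the libraries of the groups can be read. In tissue pieces of this kind, fewer cells of a type and less RNA per cell cannot be told apart.

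Shade changed the levels of many loci in the peels, with falls more frequent and larger than rises. The authors' deposited table calls 10624 of 30498 tested loci (34.8%) at a q under 0.05 by Cuffdiff. Of these, 4937 rose (16.2% of those tested) and 5687 fell (18.6%). The median log2 fold (shade over W) was 0.92 among loci that rose and -1.27 among loci that fell, and the smallest size among called loci was 0.43. A rise of at least 2-fold was called for 2161 loci and a fall of at least 2-fold for 3657 loci. At a log2 size of 3 or more the counts were 238 rises and 661 falls. These medians and counts include the called loci listed at 0 in a group, 37 rises and 274 falls. With 1 FPKM added to each group value the medians were 0.84 for rises and -1.03 for falls. Among called loci with at least 10 FPKM in whole hypocotyls in W, whose libraries do not enter the comparison, 3331 rose and 3502 fell. A minimum set in W alone favours loci that fall, where the tissues share their response. With the same minimum set on the higher of the peel groups, values that the change itself helps decide, 4144 rose and 3660 fell. Both minimums were chosen after seeing the data. The median log2 fold of the tested loci with a value above 0 in both groups was -0.02. The smallest p that the authors' table holds, 5e-05, was given to 4410 loci.

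**Figure D1:**
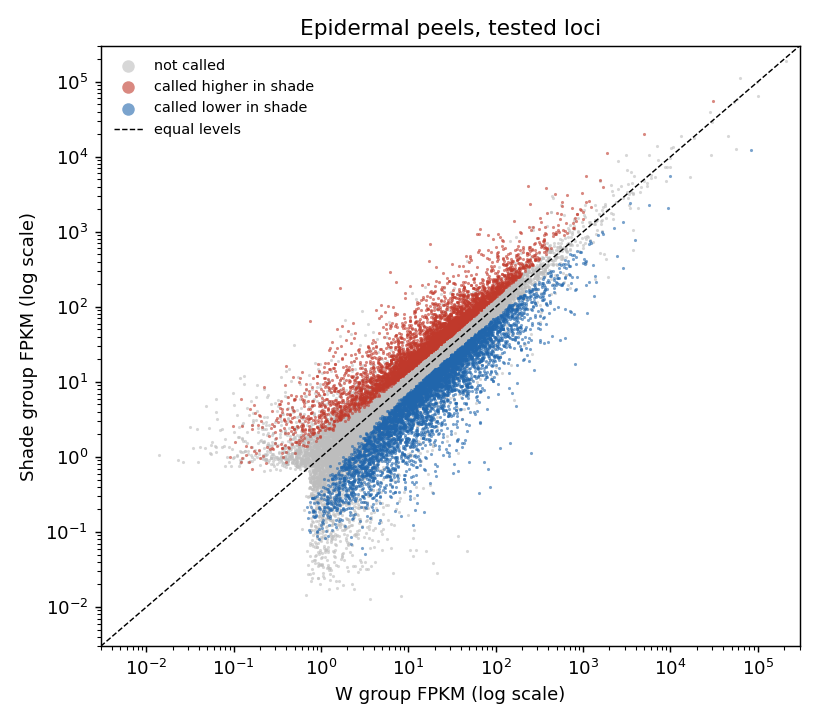
Group FPKM of each tested locus in epidermal peels, with shade on the vertical and W on the horizontal axis, both on a log scale; each point is 1 of 30154 loci with a value above 0 in both groups. Called loci lie away from the dashed line of equal levels, 4937 rises and 5687 falls in all with the loci listed at 0 in 1 group counted, and the points below the line reach farther from it than those above.

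Among called loci that reached 1 FPKM in each peel group, Brara.I00541 had the largest rise. It lies on chromosome 9 from 3023978 to 3026038 in the authors' coordinates, whose genome build the sources used here do not name. Its level was 179 FPKM in peels in shade and 1.63 FPKM in peels in W, a log2 fold of 6.78 ± 0.43, where ± gives the standard error obtained from the authors' statistic. In whole hypocotyls it was 133 FPKM in shade and 1.22 FPKM in W, a log2 fold of 6.76 ± 0.42. The gene was thus low in both W groups and high in both shade groups, and the difference between the tissues was 0.01 ± 0.60 on the log2 scale (z test on the authors' statistics, adjusted p = 1.000).

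XLOC_013718, a locus of 355 bp without an annotated gene on chromosome 4 from 3196620 to 3196974, had the next largest rise. It had 289 FPKM in peels in shade against 6.20 FPKM in peels in W, a log2 fold of 5.54 ± 0.23. Whole hypocotyls had 112 FPKM in shade and 5.64 FPKM in W, a log2 fold of 4.31 ± 0.20. The W levels of the tissues were close to each other, and the shade level was higher in the peels. The log2 fold in peels was above that in whole hypocotyls by 1.23 ± 0.30 (z test on the authors' statistics, adjusted p = 0.00136), a difference that was not called when the standard errors were taken from the deposited p (adjusted p = 1.000). The deposited p was 5e-05, the smallest value, in both tissues, so those errors are only upper limits. With them folds of these sizes could not be called different, and the check cannot decide the question.

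Brara.A00769, on chromosome 1 from 3843458 to 3844981, had the largest fall. It was at 1.14 FPKM in peels in shade and 256 FPKM in peels in W, a log2 fold of -7.82 ± 0.43. In whole hypocotyls it was at 0.141 FPKM in shade and 77.5 FPKM in W, a log2 fold of -9.10 ± 0.75. It was abundant in W and nearly absent in shade in both tissues, and the folds did not differ by the test (difference 1.28 ± 0.86, z test on the authors' statistics, adjusted p = 0.654). The deposited Cuffdiff p in whole hypocotyls was 0.0016, which is above the smallest p. With standard errors from the deposited p the difference was 1.28 ± 3.47, so the errors from the statistic may be too small for this gene.

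Brara.C03418, on chromosome 3 from 17266462 to 17267507, had the second largest fall. It was at 1.52 FPKM in peels in shade and 147 FPKM in peels in W, a log2 fold of -6.60 ± 0.42. In whole hypocotyls it was at 2.98 FPKM in shade and 1.84 FPKM in W and was not called. Peels in W were the sole group of the 4 Brassica groups with a high level, and with 1 value per group it cannot be seen whether all 3 libraries carried it. The log2 fold in peels was below that in whole hypocotyls by -7.30 ± 0.61 (z test on the authors' statistics, adjusted p = 7.47e-31), and the difference also passed with standard errors from the deposited p (adjusted p = 0.00824). All 4 of these loci had the smallest p of the authors' deposited table in the peels, 5e-05 (q = 2.71e-04). At that p the deposited p gives only upper limits for the standard errors of their log2 folds in peels, 1.37 to 1.93. The 4 loci were picked for the size of their folds in peels, and the same folds enter the test of the difference. That choice favours a larger fold in peels than in whole hypocotyls.

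**Figure D2:**
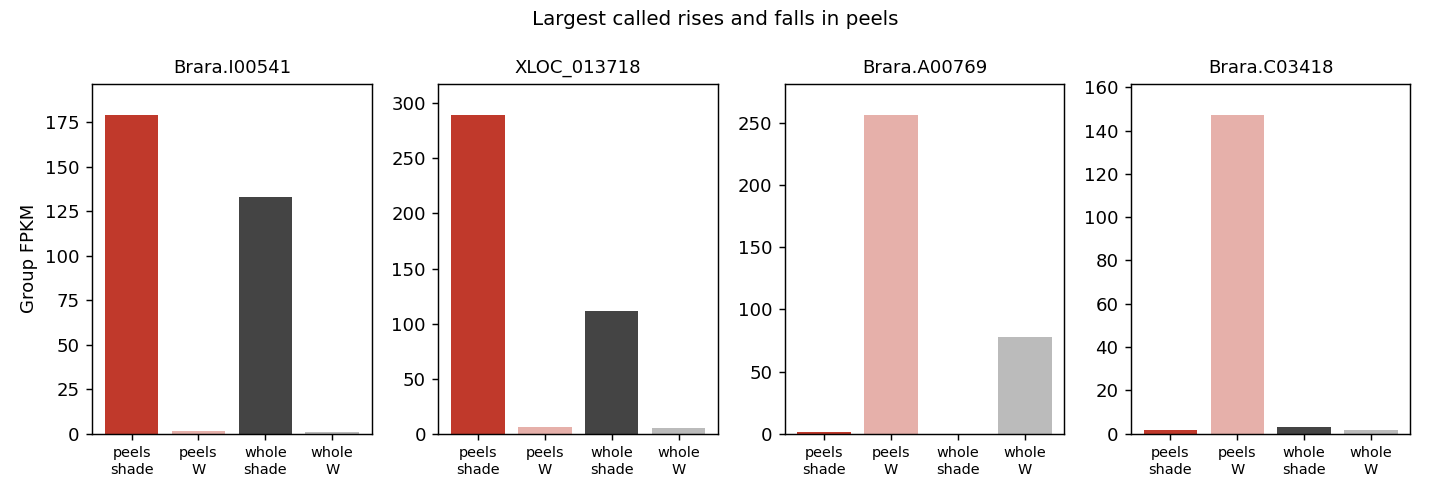
Group FPKM of the loci with the 2 largest called rises (Brara.I00541, XLOC_013718) and the 2 largest called falls (Brara.A00769, Brara.C03418) in peels; bars start at 0, are the authors' pooled values of 3 libraries and have no error. The first 3 loci changed in the same direction in peels and whole hypocotyls, and Brara.C03418 was high in peels in W alone, at 147 FPKM.

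The longest unbroken stretches of called genes in the peels were 3 dense clusters whose 31 genes all rose. They were chosen after their values were seen, as the longest runs of consecutive Brara identifiers called in the same direction. The log2 folds of the 31 genes in peels ran from 0.93 to 3.25, all at the smallest q of the authors' deposited table, and all 31 also rose in whole hypocotyls.

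The cluster on chromosome 2 held 11 genes within 12.9 kb, from 3477301 to 3490201 in the authors' coordinates. Their reported loci were 279 to 1218 bp long, with a median of 523 bp. Levels were 25.1 to 297 FPKM (median 148) in peels in shade and 3.28 to 56.0 FPKM (median 31.7) in peels in W. Every gene of this cluster was at least 3.86-fold higher in shade, and the median log2 fold was 2.56 in peels and 2.21 in whole hypocotyls. In whole hypocotyls the levels were 15.7 to 156 FPKM in shade and 2.44 to 38.2 FPKM in W.

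The cluster on chromosome 10 held 11 genes within 15.1 kb, from 14621132 to 14636250. Their levels were 20.5 to 601 FPKM (median 147) in peels in shade and 9.38 to 206 FPKM (median 66.8) in peels in W. Its genes were more uneven in response than those on chromosome 2, from 1.90-fold to 7.18-fold, with a median log2 fold of 2.05 in peels and 1.99 in whole hypocotyls. The cluster on chromosome 3 held 9 genes within 10.9 kb, from 3669888 to 3680781. They had 37.0 to 655 FPKM (median 144) in peels in shade and 6.73 to 180.0 FPKM (median 20.5) in peels in W. Their median log2 fold was 2.26 in peels and 2.01 in whole hypocotyls.

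Levels in the clusters were higher in peels than in whole hypocotyls for 31 of the 31 genes in shade and for 28 of 31 in W, as a description with no test. The share of all loci with a higher FPKM in peels was not counted, so these values do not show the clusters as particular to peels. The shade responses of the tissues differed for 1 of the 31 genes by the z test, against 5.00% of all loci that rose in both tissues, and for 0 with standard errors from the deposited p. With those errors 0 of all 7584 loci called in the same direction in both tissues differed, so that result is not particular to the clusters. Near-identical neighbours can share reads, so the values of single genes in a cluster are uncertain. In the authors' table corrected for multiply mapped reads, 30 of the 31 identifiers were listed and all 30 were called higher. They include 21 of the 577 Brara genes that rose by a log2 fold of at least 2 in the peels.

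**Figure D3:**
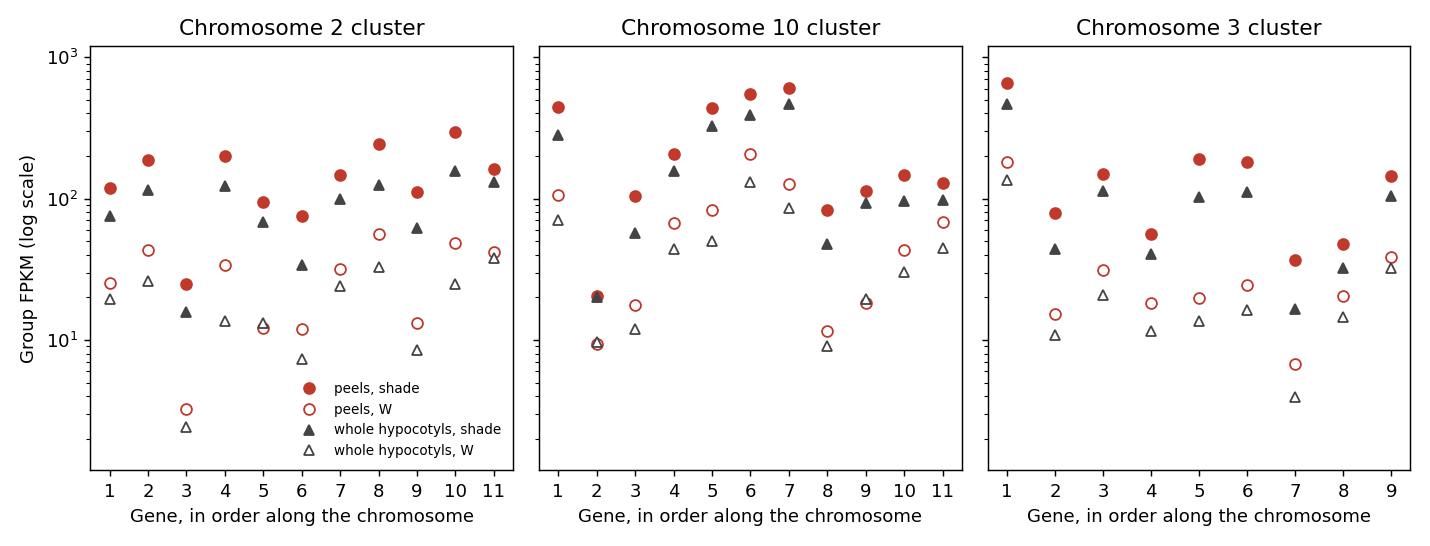
Group FPKM (log scale) of the genes in the 3 clusters on chromosomes 2, 10 and 3, in order along the chromosome; filled symbols are shade, open symbols W, circles peels and triangles whole hypocotyls, each the authors' pooled value of 3 libraries. In all 31 genes the filled symbol lies above the open one in both tissues, and the circle lies above the triangle in shade.

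Neighbouring genes were called in the same direction more often than the background. Among 16478 pairs of tested genes with consecutive identifiers and separate loci, 18.3% of genes rose and 20.5% fell. Of the neighbours of a gene that rose, 22.9% also rose and 17.5% fell. Of the neighbours of a gene that fell, 24.9% also fell and 15.6% rose. For larger changes the gap was wider: 2.29% of genes in the pairs rose by a log2 fold of at least 2, but 12.5% of the neighbours of such a gene did, and for falls of that size the values were 5.21% and 10.5%. Without the pairs that hold a gene of the 3 clusters, 22.2% of the neighbours of a gene that rose also rose, beside 18.1% of genes, and for rises by a log2 fold of at least 2 the values were 9.23% beside 2.17%. With the correction for multiply mapped reads the shares for large changes were 12.1% beside 2.24% for rises and 10.6% beside 5.15% for falls. These shares are descriptions, since neighbouring genes are not independent.

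The longest runs of falling genes were shorter, with 6 genes. One lay on chromosome 1 from 770607 to 813631, where 4 of the 6 genes were tested in whole hypocotyls and all 4 fell. The other lay on chromosome 4 from 9278460 to 9340899, with log2 folds in peels from -3.95 to -0.71, and all 6 of its genes fell in whole hypocotyls. These runs span 43.0 and 62.4 kb. A rising run of 7 genes on chromosome 5, listed at 6 separate loci, spans 40.1 kb, and 5 of its 6 genes tested in whole hypocotyls rose there. Runs of at least 4 genes numbered 18 for rises and 24 for falls. Unlike the pairs above, runs were counted over consecutive identifiers whether or not their loci were separate.

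How often a locus was called in the peels depended on its level. Levels were taken from whole hypocotyls in W, whose libraries do not enter the peel comparison. W is still the reference side of the contrast, and the tissues largely shared their shade response. A high level in W therefore favours loci that fall in shade, and a low level loci that rise. Of 2587 tested loci under 1 FPKM there, 9.32% rose and 19.0% fell in peels, and the median log2 fold of all of them was -0.39. From 30 to under 100 FPKM, 23.3% of 5189 loci rose and 23.3% fell, with a median of 0.02. At 300 FPKM or more, 19.8% of 489 loci rose and 29.4% fell. Called folds were larger at low levels, with medians of 2.28 for rises and -3.63 for falls under 1 FPKM, against 0.79 and -1.02 from 30 to under 100 FPKM. Loci listed at 0 in a peel group count in these medians. A small fold is harder to call at a low level, so these shares and sizes do not compare the shade response itself between levels. The shade calls of whole hypocotyls, split by the level in peels in W, gave 12.4% rises and 19.0% falls under 1 FPKM, with a median log2 fold of -0.13.

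**Figure D4:**
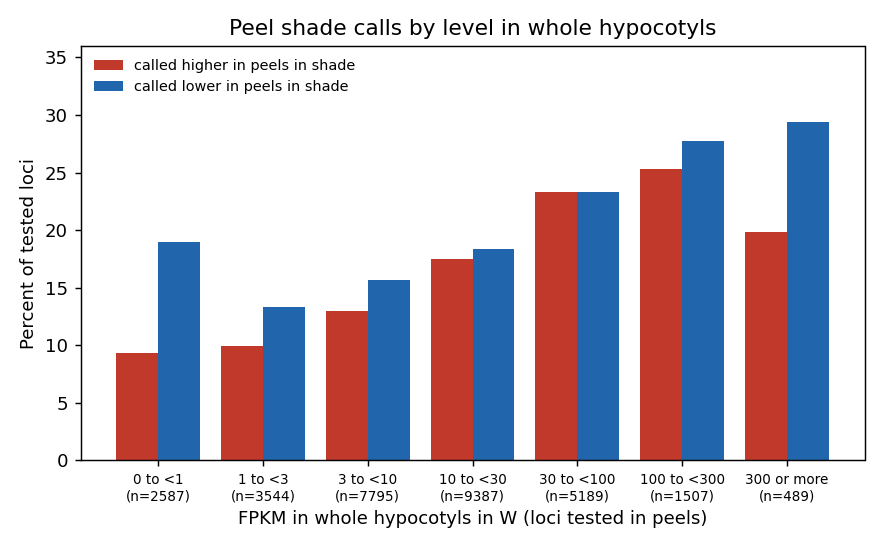
Percent of loci tested in peels that were called higher (red) or lower (blue) in shade, by their FPKM in whole hypocotyls in W; n is the number of tested loci in each class. Falls outnumber rises most under 1 FPKM (19.0% against 9.32%) and at 300 FPKM or more (29.4% against 19.8%). A class set by a high level in W favours falls.

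In peels more called loci were listed at 0 in shade than in W. Of 298 tested loci listed at 0 in shade, 274 were called lower, with a median of 2.15 FPKM in W. Of 46 tested loci listed at 0 in W, 37 were called higher, with a median of 5.03 FPKM in shade. In whole hypocotyls 66 called loci were listed at 0 in shade and 57 in W. Of the 274 loci, 72 were listed at 0 in both whole-hypocotyl groups, 59 were tested there, 16 fell and 2 rose. Of the 37 loci, 25 were tested in whole hypocotyls, where 7 rose and 0 fell at a q under 0.05 by Cuffdiff. The number of loci at 0 in the whole table moved with this result: it was 9614 in peels in shade and 7534 in peels in W, against 8150 in whole hypocotyls in shade and 8177 in whole hypocotyls in W. The part of detection in these falls was not tested.

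Among the most abundant annotated genes the balance depended on which libraries set the level. Of 328 tested Brara genes with at least 300 FPKM in whole hypocotyls in W, 81 rose (24.7%) and 135 fell (41.2%) in peels, with a median log2 fold of -0.26. A class set by a high level in W favours falls, since the tissues largely shared their shade response. Of 81 tested Brara genes with at least 1000 FPKM in a peel group, a class set by the compared values themselves, 39 rose and 24 fell. The log2 folds of the 39 ranged from 0.51 to 4.11 with a median of 1.74, and 37 of them also rose in whole hypocotyls, with a median of 1.44 over the 39. The 24 that fell had a median log2 fold of -1.43 in peels and -1.91 in whole hypocotyls, and 19 of them also fell there. The remaining 120 of the 201 tested loci at this level had no Brara identifier, and 111 of the 201 loci were under 200 bp long, where a division by length makes FPKM large. The 10 highest loci held 32.7% of the summed FPKM in peels in shade and 35.8% in peels in W, and all 10 lacked a Brara identifier in each group. One such locus of 295 bp on chromosome 1, chosen after its values were seen, had 38463 FPKM in peels in shade and was listed at 0 in peels in W (q = 2.71e-04 in the authors' deposited table). In whole hypocotyls it was listed at 0 in shade and had 5047 FPKM in W, so that it went in opposite directions in the tissues, and it was not called there (q = 0.164).

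Loci with a Brara identifier were called more often than loci without one. Of 26263 tested Brara genes, 37.6% were called, 4601 higher and 5285 lower. Of 4235 tested loci without a Brara identifier, 17.4% were called, 336 higher and 402 lower. The share was 18.1% of the 3684 with no gene named and 12.9% of the 551 with a Brara gene named beside them. At matched levels, from 10 to under 100 FPKM in whole hypocotyls in W, the shares were 41.7% of 13161 Brara genes and 21.9% of 1415 other loci. Equal FPKM does not mean equal read counts, since a shorter locus has fewer reads at the same FPKM. Among 586 tested loci under 200 bp, 12.6% were called. The part of locus length in the gap was not tested. Responding genes were spread over the genome. The share of tested Brara genes called in peels ran from 35.5% on chromosome 6 to 39.2% on chromosome 5, and it was 35.0% on unplaced scaffolds. Chromosome 4 had the largest excess of falls, 399 against 278 rises among 1766 tested genes, and chromosome 10 the most even counts, 367 falls and 360 rises.

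The shade response of the peels was largely that of the whole hypocotyl. Whole hypocotyls, which contain the epidermis, were compared from separate libraries, and in them 11511 of 30592 tested loci (37.6%) were called by the authors, 5381 higher (17.6%) and 6130 lower (20.0%). Among 28709 loci tested in both tissues, 3630 rose in both, which is 74.1% of the rises in peels and 69.0% of those in whole hypocotyls. Another 3986 fell in both, which is 75.6% of the falls in peels and 69.8% of those in whole hypocotyls. Of the loci that rose in peels, 96.3% had a log2 fold above 0 in whole hypocotyls, and of those that fell in peels, 95.3% had one below 0. Spearman's rho of the log2 folds was 0.78 across 28535 loci, which share their libraries within a tissue and are not independent.

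Shared responses were of similar size in peels and whole hypocotyls. Among the loci that rose in both, the median log2 fold was 0.96 in peels and 0.90 in whole hypocotyls, and 58.0% had the larger value in peels. Among those that fell in both, the medians were -1.26 in peels and -1.16 in whole hypocotyls, and 52.6% had the larger fall in peels. Of the 630 loci that rose by a log2 fold of at least 2 in peels and were tested in both tissues, 500 rose in whole hypocotyls. Of the 1171 that fell by as much in peels, 909 fell in whole hypocotyls.

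**Figure D5:**
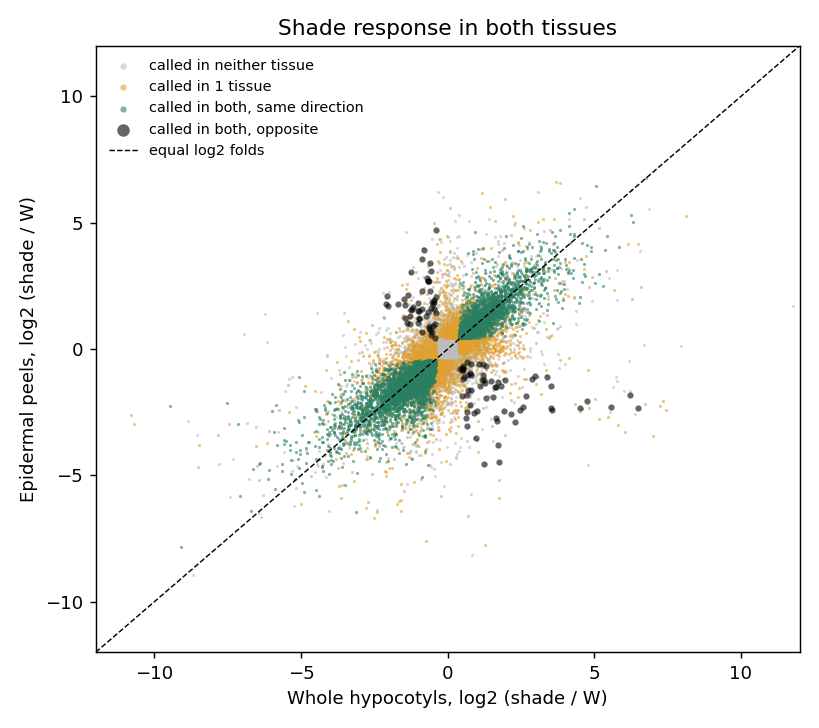
Log2 fold of shade over W in epidermal peels (vertical) against whole hypocotyls (horizontal) for 28535 loci tested in both tissues with values above 0 in all 4 groups; colours give the authors' calls and the dashed line equal folds. Loci called in both in the same direction (green, 3630 rises and 3986 falls) lie along the line, and the loci with opposite calls (black) fill the other quadrants.

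By a z test of the difference between log2 folds (two-sided, Benjamini-Hochberg adjustment), 1917 of 28485 loci (6.73%) differed, 932 with the higher log2 fold in peels (3.27%) and 985 with the lower one (3.46%). Of the 1917 loci, 694 were called in neither tissue. With standard errors from the deposited p, 253 loci differed, 121 higher and 132 lower in peels, and 0 of them were called in neither tissue. With these errors, folds that both miss their call cannot give a difference that passes at the cutoff reached here. That 0 was thus fixed in advance and tells nothing about the 694 loci. At its smallest value the deposited p gives only upper limits for the standard errors. The 694 loci called in neither tissue had p above that value, so the errors from p are not upper limits for them.

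Loci called in peels but not in whole hypocotyls differed between the tissues more often than the 6.73% of all loci. Of 1217 loci that rose in peels and were not called in whole hypocotyls, 1199 had a test of the difference and 152 differed (12.7%). Their median log2 fold was 0.76 in peels and 0.33 in whole hypocotyls. Of 1219 loci that fell in peels and were not called in whole hypocotyls, 1176 had that test and 187 differed (15.9%), and the medians were -0.95 in peels and -0.35 in whole hypocotyls. The 152 and 187 loci that differed had medians of 1.43 and -1.63 in peels against -0.01 and 0.09 in whole hypocotyls. With standard errors from the deposited p, 74 of these 2375 loci differed (3.12%), against 0.888% of all loci. Loci called in whole hypocotyls only also differed more often, 361 of 3182 (11.3%), or 75 (2.36%) with standard errors from the deposited p. Both classes were chosen by calls on the same values that the test compares. A share above that of all loci was therefore favoured in advance. A locus that did not pass is not shown to respond alike in both tissues.

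Opposite calls were rare. In all, 52 loci rose in peels and fell in whole hypocotyls, with median log2 folds of 1.64 in peels and -0.76 in whole hypocotyls, and 67 fell in peels and rose in whole hypocotyls. The 62 of these 67 loci that could be tested for the difference had medians of -1.55 in peels and 1.25 in whole hypocotyls. These loci were chosen by their calls on the same values, so a test of the difference adds nothing to them.

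The authors' correction for reads that map to several places left the peel response nearly unchanged. The corrected table calls 10655 of 30422 tested loci, 4947 higher and 5708 lower. Of 39934 Brara identifiers found in both tables, 9702 were called in the same direction in both and 0 in opposite directions. Calls were lost with the correction for 97 genes and gained for 143, a small part of the 9799 called without it and 9845 called with it. The log2 folds of 98.6% of 25737 genes agreed within 0.1, and 58 genes moved by more than 0.5.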

How the data were processed

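The members and tests were chosen with earlier results of these data known. Per the labels, strand-specific libraries of polyadenylated RNA were sequenced as single reads of 50 bp. Per the submitters' processing notes, CASAVA 1.8.2, TopHat2 2.0.9, Bowtie2 2.1.0, Cufflinks and Cuffdiff were used; no Brassica genome build is named in those sources. The authors deposited FPKM values, 1 per group, a test statistic (score) and a p-value and q-value per locus; the q-values were used as they stand, and a call is a q under 0.05 at status OK. Depth per sample is unknown, so no precision from depth can be given. Log2 folds (shade over W) were computed from the FPKM without a pseudocount, since the deposited column runs the other way and holds spreadsheet errors. Starts were raised by 1 to count from 1.

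Standard errors are the size of the log2 fold over the authors' statistic, multiplied by the median of its ratio to the normal deviate of p between 0.001 and 0.5 (0.758 in peels, 0.670 in whole hypocotyls). The statistic was more than 2 times the size this gives for 8.31% of peel loci and 7.45% of whole-hypocotyl loci above the smallest p. Tissue differences were tested where a group reached 1 FPKM, in a procedure tested on simulated data (Python 3.11.15, scipy 1.17.1). In the simulation the statistic and p were made to match, so it cannot show which standard error is right for these data. Named loci are the 2 largest called rises and falls with at least 1 FPKM in both peel groups. Lists of Arabidopsis symbols were not applied, as the identifiers are not paired with names.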

Additional observations from a re-analysis of the deposited data

Results flagged for a closer look

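The shade response differed between peels and whole hypocotyls for 1917 loci by the z test of the difference with Benjamini-Hochberg adjustment. With standard errors from the deposited p the count was 253. Among the named loci, which were picked for their folds in peels, 2 differed by that test. XLOC_013718 had a log2 fold in peels that was 1.23 above that in whole hypocotyls. It did not pass with standard errors from the deposited p, which are only upper limits for this locus in both tissues and could not let it pass. Brara.C03418 had a difference of -7.30, which passed with both.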

How the results depend on the processing

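No paired analysis was possible because the tables hold 1 value per group, and for the same reason no library could be left out in turn. A minimum fold of 2 left 5818 calls in peels, 2161 higher and 3657 lower. At a q under 0.01 there were 7485 calls, and with Benjamini-Hochberg adjustment over the peel table alone 10228. With alternatives added after seeing the data, a minimum of 10 FPKM in a peel group left 3660 falls and 4144 rises, and the same minimum in whole hypocotyls in W left 6833 calls, 3502 falls and 3331 rises. The count of loci that differed between the tissues depended on the standard error. It was 253 with standard errors from p (121 above 0, 132 below) and 226 with the larger of both errors (107 above 0, 119 below), the second being added after seeing the data. The cause of the gap was not tested. The other 44 recomputed counts and medians stayed within 1.5 times the reported ones, and the log2 folds of the 4 named loci kept their direction under each pseudocount, centring and table tried. Unknown depth and the missing values per library limit every low level given here.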
